A study of Homo sapiens with 4 samples.

Results

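A set of 10 genes that growing cells use to make protein was followed as read counts across A375 melanoma cells: TPT1, EEF1A1, EEF2, EEF1B2, EEF1G, EIF4A1, EIF4A2, PABPC1, NPM1 and NCL. They were taken by symbol from the deposited gene tables and are 10 of 46416 entries, of which 19659 are protein-coding. The choice is a list of symbols with no threshold on a measured value, made with earlier results of these data known. The cells are the A375-S line, sensitive to the BRAF inhibitor encorafenib, and the A375-R line, resistant to it. Both carry mutated BRAF per the labels, and both were grown in high-glucose DMEM with fetal bovine serum. Each line was sequenced without treatment and after 48 h in 10 nM encorafenib, which makes 4 groups of 1 library each. How the resistant line was derived, whether it is 1 clone, and whether the untreated cells received a vehicle is information not given in the sources used here.

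Most of these mRNAs belong to a class named after its first bases. A terminal oligopyrimidine (TOP) mRNA begins with a C followed by an unbroken run of C and U. Such mRNAs encode ribosomal proteins and translation factors, and their translation is held back by the RNA-binding protein LARP1 when the kinase mTORC1 is inactive. They are among the most abundant mRNAs of dividing cells, so they carry many processed pseudogene copies in the genome, and several of their introns release small nucleolar RNAs (snoRNAs), which guide the chemical modification of ribosomal RNA.

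The TOP sequence is what gives the class its name, so the 5′ ends of the genes are printed here from 10 bases before to 20 bases from each RefSeq start site (GRCh38.p14). Capitals mark a C at the start site with the C and T run that follows it, where that run adds at least 4 bases. The first 6 starts carry such a run.
TPT1, chr13:45341164-45341193, minus strand: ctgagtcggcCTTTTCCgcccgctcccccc
EEF1A1, chr6:73521013-73521042, minus strand: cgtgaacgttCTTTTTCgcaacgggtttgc
EEF2, chr19:3985444-3985473, minus strand: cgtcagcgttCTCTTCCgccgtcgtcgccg
EEF1B2, chr2:206159885-206159914, plus strand: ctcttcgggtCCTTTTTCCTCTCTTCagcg
EIF4A2, chr3:186783567-186783596, plus strand: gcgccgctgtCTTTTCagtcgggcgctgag
NPM1, chr5:171387839-171387868, plus strand: agcctgcgtcCTTTCCCTggtgtgattccg
EEF1G, chr11:62573872-62573901, minus strand: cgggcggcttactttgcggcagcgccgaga
EIF4A1, chr17:7572815-7572844, plus strand: ggcactccgccctagtttctaaggatcatg
NCL, chr2:231464465-231464494, minus strand: ctttcgcctcagtctcgagctctcgctggc

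The run was 7 bases long in TPT1, EEF1A1 and EEF2, 16 in EEF1B2, 6 in EIF4A2 and 8 in NPM1, counting the first C. EEF1B2 and NPM1 each had another listed start without it. On the transcribed strand, 6 of 11 listed starts of the genes (54.5%) held the run, beside 4.07% of 35116 starts of all genes, 4.59% of 21845 starts of protein-coding genes and 56.5% of 85 starts of cytosolic ribosomal protein genes. The starts of EEF1G and NCL listed by RefSeq held no run from the first base, and EIF4A1 began with only 3 pyrimidines. These letters describe the listed starts alone, since start sites in these cells were not measured. For PABPC1, on chromosome 8, no sequence is printed.

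The libraries held mostly structural RNA, and the mRNA share was thin. Gene-table totals ran from 20507667 to 33664470 counts, of which 88.7% to 93.8% were ribosomal RNA and 3.46% to 7.38% snoRNA. In resistant cells, protein-coding genes took 326919 counts without drug and 307026 with it, and in sensitive cells 435351 and 215894. A count of 0 therefore allows up to 9.18, 9.77, 6.89 and 13.9 CPM, per protein-coding total, in those 4 libraries. The melanoma label held for some markers and not for others: SOX10 had 73 to 157 counts, MITF 19 to 59 and S100B 49 to 134, while MLANA and TYR were at 0 in all 4 libraries and PMEL and TYRP1 had at most 1 count. The 9 melanocyte lineage markers summed to 195 and 246 counts without drug and to 500 and 661 counts with it, in resistant and sensitive cells. That rise was not shared by all of them. DCT went from 1 to 145 counts in resistant and from 0 to 332 in sensitive cells, and GPNMB from 32 to 74 and from 5 to 148. MITF went from 19 to 59 and from 31 to 45, and S100B from 49 to 134 and from 53 to 63. SOX10 did not rise in raw counts, with 94 and 86 in resistant and 157 and 73 in sensitive cells. Raw counts do not allow for the smaller protein-coding total of the treated sensitive library. Markers of fibroblasts (5 genes, 3 to 13 counts), epithelium (4 genes, 0 to 1) and endothelium (3 genes, 0 to 1) were near 0, and the 5 immune markers summed to 7 to 38 counts, nearly all of them CD68 and LYZ.

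In what follows, 4 values in a row are in the order untreated resistant, treated resistant, untreated sensitive and treated sensitive cells. Scaled counts are read counts brought to a common library size with TMM factors (trimmed mean of M-values, edgeR). Ratios are log2 ratios of scaled counts, with the 95% counting interval in parentheses. With 1 library per group a ratio compares libraries, has no replicate check and gets no p-value. Intervals cover only counting error, not variation between cultures or libraries. The reads were amplified by PCR and carry no molecular identifiers, so the intervals may be too narrow even for counting error. In bulk samples, fewer cells and less RNA per cell cannot be told apart.

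**Figure D1:**
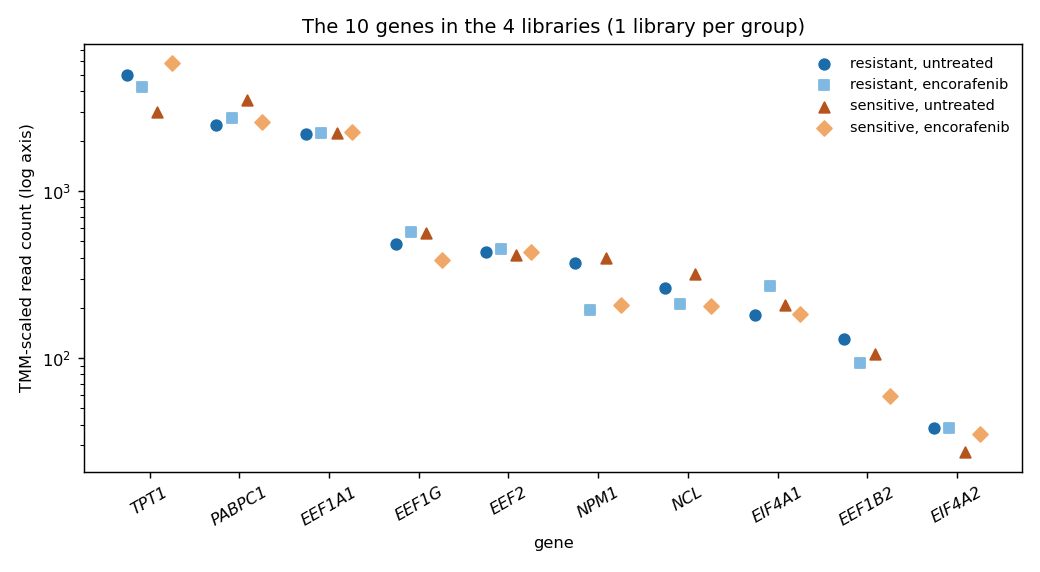
TMM-scaled read count (log axis) of each of the 10 genes, with 1 point per library and 1 library per group. EEF1A1 and EEF2 have points that nearly coincide, TPT1 is lowest in untreated sensitive cells at 2972, and NPM1 is lower in both treated libraries than in both untreated ones.

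TPT1 encodes the translationally controlled tumour protein, a small conserved protein whose mRNA is a classic TOP mRNA. It was the most counted of the 10 genes in 3 of the 4 libraries, with 4925, 4090, 4024 and 4000 counts, and ranked 4, 6, 5 and 2 among protein-coding entries. Scaled, it stood at 4956, 4234, 2972 and 5830, so the untreated sensitive library was the lowest and the treated sensitive library the highest. Without drug, TPT1 was higher in the resistant line by 0.74 (0.68 to 0.80). With drug it was lower in resistant cells by -0.46 (-0.52 to -0.40), a direction that turned to 0.35 when libraries were scaled by their gene-table totals.

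Encorafenib went with more TPT1 in sensitive cells, 0.97 (0.91 to 1.04), and with slightly less in resistant cells, -0.23 (-0.29 to -0.17). The response of resistant cells minus that of sensitive cells was -1.20 (-1.29 to -1.11). TPT1 was the single gene of the 10 for which this difference lay wholly beyond 2-fold. Of 8865 genes tested, 92 lay that far on the higher and 105 on the lower side. Of 393 protein-coding genes with a mean of at least 100 counts, 7 and 5 did. Under scaling by gene-table totals the difference for TPT1 was -0.49 (-0.58 to -0.40), no longer beyond 2-fold. The ratio of TPT1 to PABPC1 counts within a library, which needs no scaling, was 1.99, 1.54, 0.848 and 2.24. That ratio, chosen after the data were seen, differed with drug by 1.40 (1.30 to 1.50) in sensitive cells and by -0.37 (-0.47 to -0.27) in resistant cells. Part of this is PABPC1, whose own scaled drug ratios were -0.43 in sensitive and 0.14 in resistant cells. TPT1 counts per EEF1A1 count differed with drug by 0.95 (0.84 to 1.06) in sensitive and by -0.24 (-0.34 to -0.13) in resistant cells.

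An annotated snoRNA gene lies within the long TPT1 mRNA itself. SNORA31B is placed by RefSeq at chr13:45336314-45336447 (GRCh38, minus strand), all 134 bases inside the last exon of the 4735-base TPT1 transcript. It had 658, 641, 398 and 563 counts, and like TPT1 it was lowest, when scaled, in untreated sensitive cells (662, 664, 294 and 821). Its ratios were 1.17 (0.99 to 1.36) between lines without drug and 1.48 (1.29 to 1.67) for the drug in sensitive cells, where TPT1 had 0.74 and 0.97. Between lines with drug it was at -0.31 (-0.47 to -0.14), beside -0.46 for TPT1. For the drug in resistant cells its ratio of 0.0031 had an interval that included 0 (-0.16 to 0.16), where TPT1 was lower at -0.23. Whether reads from this stretch were counted for TPT1 as well was not tested. If every SNORA31B count were also a TPT1 count and were taken off, TPT1 would stand at 4267, 3449, 3626 and 3437 counts, with 0.68 (0.62 to 0.75) between lines without drug and 0.90 (0.84 to 0.97) for the drug in sensitive cells. The antisense entry TPT1-AS1, which shares 26 exon bases, had 0, 17, 3 and 5 counts.

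The elongation factors differed from each other in how steady they were. EEF1A1 encodes the factor that brings aminoacyl-tRNA to the ribosome, and it had 2203, 2158, 3015 and 1548 counts. Scaled, these became 2217, 2234, 2226 and 2256, a highest over lowest library of 1.02, the smallest of the 10 genes. All of its ratios lay between -0.01 and 0.02, and the widest of the 4 intervals ran from -0.11 to 0.08. EEF2, which moves the ribosome along the mRNA, had 431, 438, 560 and 295 counts and a highest over lowest scaled count of 1.10. Its ratios were 0.06 to 0.08 and each interval included 0, with bounds no further out than 0.29. Under scaling by gene-table totals both genes moved with the median gene, to -0.56 and -0.53 for the drug in sensitive cells.

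EEF1B2 and EEF1G encode subunits of the complex that recharges EEF1A1 with GTP, and neither was as steady. EEF1G had 478, 547, 763 and 265 counts, or 481, 566, 563 and 386 when scaled, so the treated sensitive library was the lowest. With encorafenib EEF1G was lower in sensitive cells, at -0.54 (-0.75 to -0.34), and higher in resistant cells, at 0.24 (0.06 to 0.42). It was -0.23 (-0.40 to -0.06) lower in the resistant line without drug and 0.55 (0.34 to 0.77) higher with drug. The response difference was 0.78 (0.51 to 1.05).

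EEF1B2 was sparse, with 130, 91, 143 and 41 counts, and was lower with drug in both lines. Its drug ratio was -0.81 (-1.36 to -0.31) in sensitive cells and -0.47 (-0.88 to -0.08) in resistant ones, and the response difference of 0.34 had an interval of -0.29 to 0.97, which at this depth leaves its direction unresolved. Under drug it was 0.65 (0.11 to 1.23) higher in resistant cells. EEF1D, another subunit of the same complex, had 88, 113, 105 and 39 counts and was 1.03 (0.50 to 1.61) higher in resistant cells under drug. EEF1A2, the tissue-restricted relative of EEF1A1, had 5 to 28 counts.

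EIF4A1 and EIF4A2 encode near-identical RNA helicases that unwind the 5′ end of mRNAs as part of the cap-binding complex. EIF4A1 had 180, 260, 282 and 127 counts, or 181, 269, 208 and 185 when scaled, so the treated resistant library stood above the other 3. It was 0.57 (0.29 to 0.85) higher with drug in resistant cells, and its ratio of -0.17 in sensitive cells had an interval that included 0 (-0.48 to 0.14). Under drug it was 0.54 (0.23 to 0.86) higher in resistant than in sensitive cells. EIF4A2 had 38, 37, 37 and 24 counts, and all 4 of its intervals included 0, the widest running from -0.65 to 0.94. The ratio of EIF4A1 to EIF4A2 counts was 4.74, 7.03, 7.62 and 5.29, and no comparison of it had an interval that excluded 0.

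The direction of the EIF4A1 difference in resistant cells turned when an overlapping entry was added. SENP3-EIF4A1, a read-through transcript listed as non-coding, shares 1466 exon bases with EIF4A1 and had 124, 0, 138 and 16 counts, so it was at 0 in the library where EIF4A1 was highest. Counted together, as an alternative chosen after the data were seen, the entries had 304, 260, 420 and 143 counts. The drug ratio in resistant cells then became -0.18 (-0.43 to 0.06), opposite in sign to 0.57, and that in sensitive cells -0.57 (-0.86 to -0.30). How reads of the shared bases were assigned was not given in the sources used here, so EIF4A1 values are uncertain, while the sum was still 0.37 (0.07 to 0.67) higher in resistant cells under drug.

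PABPC1, the main cytoplasmic poly(A)-binding protein, was the most counted of the 10 genes in untreated sensitive cells. It had 2480, 2664, 4743 and 1784 counts, or 2496, 2758, 3502 and 2600 when scaled, so that library stood above the other 3. Resistant cells had less of it without drug, -0.49 (-0.56 to -0.42), and the lines differed by 0.08 (-0.0022 to 0.17) with drug. Encorafenib went with less PABPC1 in sensitive cells, -0.43 (-0.51 to -0.35), and slightly more in resistant cells, 0.14 (0.06 to 0.22), a response difference of 0.57 (0.46 to 0.68). PABPC4, a relative that binds the same tail, was lower with drug in sensitive cells by -1.20 (-1.46 to -0.96), from 725 to 159 counts, and by -0.22 (-0.42 to -0.02) in resistant cells.

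NPM1 and NCL encode abundant nucleolar proteins, and NPM1 was lower with drug in both lines. NPM1, a histone chaperone that takes part in ribosome assembly, had 370, 188, 536 and 143 counts, or 372, 195, 396 and 208 when scaled. Both treated libraries lay below both untreated ones. Its drug ratio was -0.92 (-1.20 to -0.66) in sensitive cells and -0.93 (-1.20 to -0.68) in resistant ones, and the lines differed by -0.09 without drug and -0.10 with it, both intervals including 0. The difference of the responses was -0.01 (-0.38 to 0.35), which became 0.70 under scaling by gene-table totals, with drug ratios of -1.50 in sensitive and -0.81 in resistant cells. NPM1 counts per EEF1A1 count, free of scaling, were 0.168, 0.0871, 0.178 and 0.0924.

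NCL, nucleolin, acts in the transcription and processing of ribosomal RNA and had 260, 203, 431 and 141 counts, or 262, 210.1, 318 and 206 when scaled. It was lower with drug in sensitive cells, -0.63 (-0.92 to -0.35), and in resistant cells, -0.32 (-0.59 to -0.05). Without drug it was -0.28 (-0.51 to -0.06) lower in resistant cells. The response difference of 0.31 (-0.07 to 0.69) was not resolved at this depth.

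**Figure D2:**
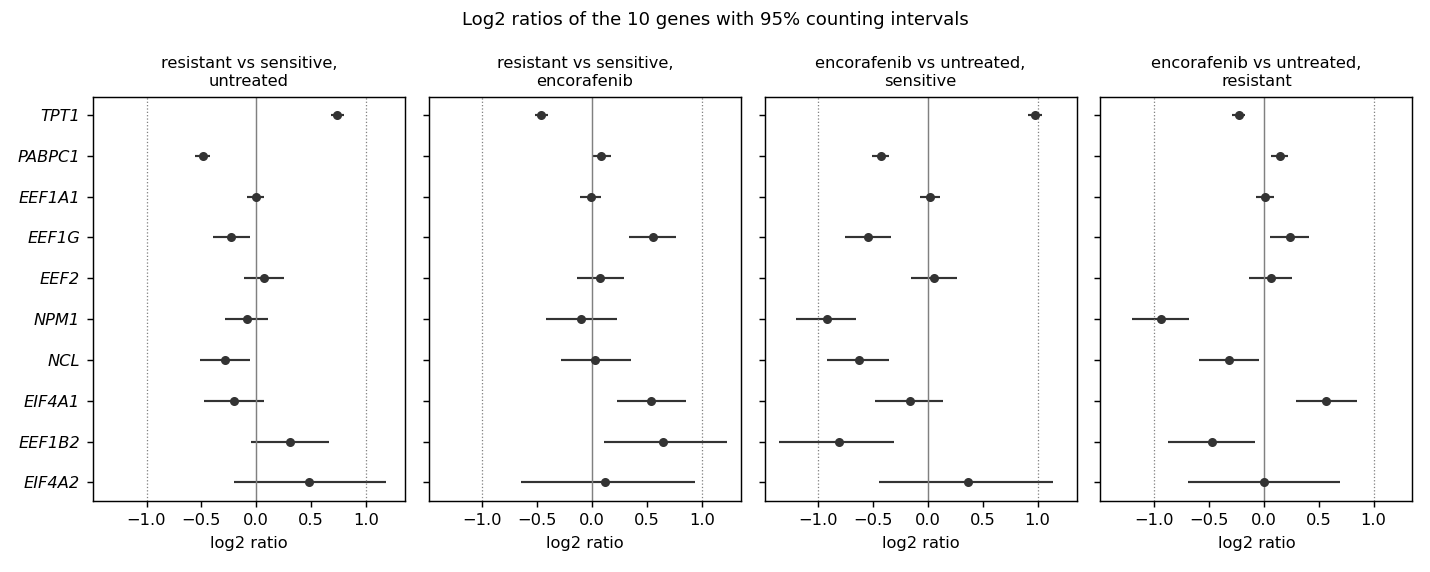
Log2 ratio of TMM-scaled counts for the 10 genes in the 4 pairs of libraries, with bars for the 95% counting interval and dotted lines at 2-fold. TPT1 reaches 0.97 and NPM1 -0.92 for the drug in sensitive cells, EEF1A1 and EEF2 sit near 0 throughout, and no interval lies wholly beyond a dotted line.

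As a group, the 10 genes were close to the abundant mRNAs around them. No gene of the 10 lay wholly beyond 2-fold in any of the 4 pairs, where 2.88% of the 8865 genes tested lay beyond it on the higher and 1.15% on the lower side between lines without drug, 2.71% and 1.24% between lines with drug, 3.55% and 2.5% for the drug in sensitive cells, and 3.36% and 1.59% for the drug in resistant cells. Intervals narrow with depth, so the counts of intervals excluding 0 are set beside the 393 protein-coding genes with a mean of at least 100 counts. Between lines without drug, 1 of the 10 was above 0 and 3 were below it, where 27.7% and 30.3% of abundant genes were. With drug, 3 were above and 1 below, beside 30.3% and 14.5%. For the drug in sensitive cells 1 was above and 5 were below, beside 21.6% and 48.9%, and in resistant cells 3 were above and 4 below, beside 17% and 37.2%. Over all genes tested, most of them sparse, the shares above and below 0 were 12.7% and 11.4%, 11.3% and 8.78%, 14.7% and 13.2%, and 12.2% and 9.36% in the same 4 comparisons.

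The median ratios of the 10 genes were -0.05 between lines without drug, 0.08 with drug, -0.30 for the drug in sensitive cells and 0.01 in resistant cells. For the abundant protein-coding genes they were 0.01, 0.08, -0.27 and -0.13, and for all genes tested -0.01, 0.04, 0.01 and 0.04. Of the differences of responses, 3 were above 0 (EEF1G, EIF4A1 and PABPC1) and 1 below (TPT1), beside 24.9% and 16.8% of abundant genes and 7.35% and 8.18% of all genes tested. Under gene-table totals the difference grew to 1.49 for EEF1G, 1.45 for EIF4A1 and 1.28 for PABPC1. The median without drug turned to 0.05 under scaling by gene-table totals, and that of the drug in resistant cells to -0.01 under DESeq2 size factors, so neither has a direction.

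**Figure D3:**
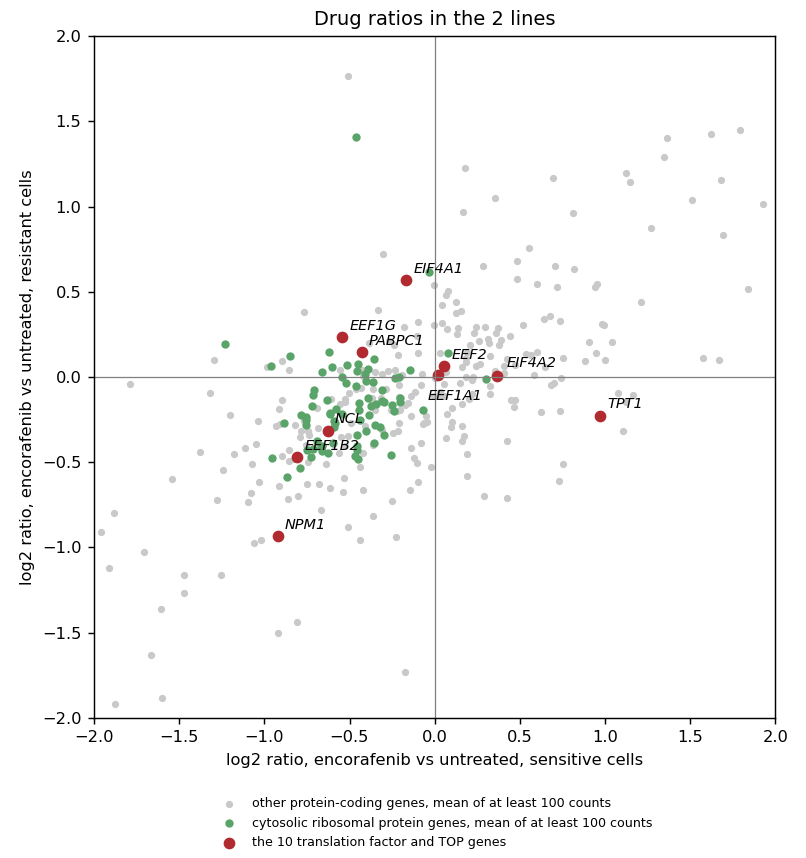
Log2 drug ratio in sensitive cells (horizontal) against resistant cells (vertical) for the 10 genes (red), 78 cytosolic ribosomal protein genes (green) and the other protein-coding genes with a mean of at least 100 counts (grey), 349 green and grey points in all, with 35 genes outside the axes not drawn. TPT1 sits to the lower right at 0.97 and -0.23, NPM1 at the lower left at -0.92 and -0.93, and the ribosomal protein genes gather to the left of 0.

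Together the 10 genes took a similar slice of the mRNA counts in each library, and it moved one way with TPT1 and the other way without it. Their share of protein-coding counts was 3.52% (3.45 to 3.58, exact Clopper-Pearson interval), 3.48% (3.41 to 3.54), 3.34% (3.29 to 3.39) and 3.88% (3.79 to 3.96). TPT1 alone took 1.51%, 1.33%, 0.924% and 1.85%, and the other 9 genes 2.01%, 2.15%, 2.41% and 2.02%. With drug in sensitive cells, the summed counts of all 10 were higher by 0.18 (0.15 to 0.22), while those of the other 9 were lower by -0.29 (-0.34 to -0.23). In resistant cells the sums differed by -0.07 (-0.10 to -0.03) and 0.04 (-0.01 to 0.09).

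Per length of the reference transcript, TPT1, PABPC1, EEF1A1 and EEF1G came first and EIF4A2 last in every library, while some ranks between varied. EIF4A1 ranked 8, 5, 7 and 7, and NPM1 5, 7, 5 and 6. How evenly the library kit captures mRNAs of different genes was not tested. The order is therefore one of counts per length and may differ from that of mRNA levels. In CPM of the protein-coding total per kilobase of the reference transcript, TPT1 stood at 3182, 2813, 1952 and 3913, PABPC1 at 2177, 2490, 3126 and 2371, and EEF1A1 at 1517, 1583, 1559 and 1615. EEF1G followed with 806 to 1170, NPM1 with 348 to 700, EEF2 with 407 to 451, EIF4A1 with 314 to 482, EEF1B2 with 173 to 362 and NCL with 162 to 245. EIF4A2 was the lowest in all 4 libraries at 44.3 to 62.8. The range of EEF2 overlapped those of NPM1 and EIF4A1, and the range of EEF1B2 overlapped those of NPM1, EIF4A1 and NCL. EEF2 was above EEF1B2, and EEF1B2 above NCL, in all 4 libraries. TPT1 was second to PABPC1 in untreated sensitive cells with its 4735-base transcript, and first in all 4 libraries, at 8395 to 16828, with its 1101-base transcript.

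One fit with a residual could be made across all libraries, with a term for line and a term for drug. Its 1 residual degree of freedom holds how the responses of the lines differ. In edgeR (quasi-likelihood test, Benjamini-Hochberg adjustment over 7092 genes), 0 of the 10 passed an adjusted p of 0.05 for line or for drug. At an unadjusted p under 0.05, 0 passed for line and 1 for drug, beside 13.6% and 18.5% of all genes. At the adjusted threshold, 2% of all genes were called higher and 0.437% lower for line, and 3.4% and 2.34% for drug. NPM1 had the smallest drug p of the 10, with a log2 fold change of -0.94 and an adjusted p of 0.114 in edgeR, and it was lower with drug in both lines. Its adjusted p was 0.0411 by limma-voom, 0.0453 in edgeR with DESeq2 size factors, and 0.0123 on protein-coding genes alone. It was 0.15 with no count minimum, 0.489 with total counts in edgeR and 0.415 by DESeq2, so 3 of 6 alternatives made the call. For line, the adjusted p-values of the 10 ran from 0.583 to 0.979. DESeq2 called 0 of the 10 for drug and 0 of the 9 to which it gave an adjusted p for line.

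Lists of related genes, chosen with earlier results of these data known, were read beside the 10. Their counts are of genes whose 95% interval lay wholly below or above 0. For the drug, the shares to set them against are 48.9% below and 21.6% above in sensitive cells and 37.2% and 17% in resistant cells among abundant protein-coding genes, and 13.2% and 14.7%, then 9.36% and 12.2%, among all genes tested. Of 12 other TOP mRNAs outside the ribosomal proteins, 9 had an interval below 0 in sensitive cells and 0 above it, with all 12 ratios below 0 and a median of -0.40. In resistant cells 3 intervals were below 0 and 0 above, with a median of -0.09, which turned to 0.03 under gene-table totals. PABPC4 and HNRNPA1, an RNA-binding splicing factor, were the furthest below in sensitive cells, HNRNPA1 at -1.10 (-1.42 to -0.79). Between lines without drug, 7 intervals were below 0 and 2 above, beside 30.3% and 27.7% of abundant genes, with NAP1L1, a histone chaperone, at -0.73 (-0.94 to -0.52). Of 82 cytosolic ribosomal protein genes tested out of 87 listed, 74 had an interval below 0 and 1 above for the drug in sensitive cells, where 80 ratios were below 0 and the median was -0.46. In resistant cells 37 intervals were below 0 and 3 above, with 62 ratios below 0 and a median of -0.18. TPT1, at 0.97 in sensitive cells, thus lay on the other side of 0 from nearly all of them, EEF1A1 and EEF2 lay near 0, and PABPC1, EEF1G and NCL lay among them.

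The initiation factors, 34 of 35 tested, had 9 intervals below 0 and 0 above for the drug in sensitive cells, with 23 ratios below 0 and a median of -0.29. In resistant cells 5 intervals were below and 1 above, with a median of -0.25. EIF2S2, the beta subunit of the factor that carries the initiator tRNA, was at -0.79 (-0.97 to -0.62) in sensitive cells, with 1158 counts untreated and 339 treated. EIF1, which helps choose the start codon, was at -0.67 (-0.96 to -0.39) in resistant cells. Of the other elongation and termination factors, 8 of 11 were tested and 2 had an interval below 0 in each line with drug. EIF5A, which helps ribosomes past difficult sequences, was higher in resistant than in sensitive cells both without drug, 0.86 (0.57 to 1.15), and with it, 0.82 (0.41 to 1.25).

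Of 19 nucleolar assembly factors tested out of 20, the group nearest to NPM1 and NCL, 6 had an interval below 0 and 1 above for the drug in sensitive cells (median -0.69), and 4 below and 0 above in resistant cells (median -0.34). These shares, like those of the initiation factors, were not above those of the abundant genes. Many genes of both lists have under 100 counts, so their intervals are wider than those of the abundant genes. The shares below 0 of both lists were above the 13.2% (sensitive) and 9.36% (resistant) of all genes tested. The nucleolar medians were lower than the -0.27 and -0.13 of the abundant genes. FBL, the methyltransferase of snoRNA particles, was at -1.12 (-1.81 to -0.51) in sensitive cells on 26 against 113 counts, and NOLC1, a nucleolar chaperone of snoRNA particles, at -1.26 (-1.82 to -0.74) in resistant cells on 42 against 104. Between lines, DKC1 was lower in resistant cells, at -1.44 (-1.60 to -1.28) without drug and -1.95 (-2.15 to -1.76) with it. Both intervals lay wholly beyond 2-fold, where 1.15% and 1.24% of all genes tested did on that side. Of 21 regulators of TOP mRNA translation tested out of 22, 6 had an interval above 0 and 2 below in sensitive cells with drug, with a median of 0.31 that turned to -0.27 under gene-table totals. LARP1 itself was 0.55 (0.05 to 1.03) higher there, on 62 against 84 raw counts. Its lower bound is smaller than the shift of the median gene with no count minimum (-0.10) or under gene-table totals (-0.58). Whether LARP1 was higher therefore depends on the scaling. In those settings 3 and 1 regulators had an interval above 0, and 2 and 4 below. DESeq2 size factors, TMM on protein-coding genes and protein-coding totals left 6 above. DDIT4, a stress-induced inhibitor of mTORC1, was 0.93 (0.35 to 1.55) higher with drug in resistant cells. Many regulators had under 50 counts, so most of their ratios were not resolved at this depth.

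Genes of this kind have many processed copies, and none of the entries named as copies carried a count. The tables list 91 entries named as copies of the 10 genes, 37 of EEF1A1, 12 of EIF4A1, 11 each of TPT1 and PABPC1, 7 each of EEF1B2 and EEF1G, 4 of EIF4A2 and 2 of NCL, and every one stood at 0 in all 4 libraries. EEF2 and NPM1 had no entry named as a copy, so nothing was checked for them. PABPC3, a relative of PABPC1 that this naming does not take in, had 2, 0, 2 and 0 counts. Of all 7222 pseudogene entries, 72 had a count, whereas 505 of 1118 transcribed pseudogene entries did. How reads matching a gene and its copies were assigned was not given in the sources used here, so the counts of the 10 genes are uncertain to that extent. None of the 10 had the same 4 counts as another entry.

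Of the 10 genes, 6 hold snoRNA genes with counts, 15 placed by the annotation, of which SNORA31B in TPT1 is exonic and the other 14 are intronic. Some snoRNAs lay near their hosts, such as SNORD20 between lines without drug at -0.41 (-0.46 to -0.37) beside -0.28 for NCL, and others lay far from them. SNORD37 in EEF2 and SNORD82 in NCL, both of the box C/D kind, are printed here because their ratios lay furthest above those of their hosts. Capitals mark TGATGA, the letters of the C box, and CTGA, those of the D box, on the transcribed strand. In SNORD37 the first CTGA follows directly on TGATGA.
SNORD37, intron 4 of EEF2, chr19:3982507-3982572, minus strand, GRCh38: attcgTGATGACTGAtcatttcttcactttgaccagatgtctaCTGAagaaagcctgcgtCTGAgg
SNORD82, intron 5 of NCL, chr2:231460371-231460440, minus strand, GRCh38: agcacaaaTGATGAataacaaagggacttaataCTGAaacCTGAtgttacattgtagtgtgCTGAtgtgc
Of 955 annotated snoRNA transcripts, 36.0% hold TGATGA and 71.2% hold CTGA.

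SNORD37 had 3540, 3166, 761 and 1171 counts, so both resistant libraries lay above both sensitive ones, while EEF2 was level. It was 2.66 (2.55 to 2.78) higher in the resistant line without drug and 0.94 (0.84 to 1.04) higher with drug, where EEF2 had 0.07 and 0.08. SNORD82 had 269, 3539, 149 and 174 counts, so the treated resistant library stood far above the other 3. Its drug ratio in resistant cells was 3.76 (3.58 to 3.94), where NCL had -0.32 and SNORD20, in another intron of NCL, had -0.26 (-0.31 to -0.20). Over the 4 libraries the scaled counts of SNORD82 spanned 33.3-fold, against 1.55-fold for NCL.

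SNORA41 in EEF1B2 was the reverse of SNORD37, with 35, 57, 381 and 261 counts. It was lower in resistant cells by -2.98 (-3.54 to -2.50) without drug and by -2.68 (-3.13 to -2.27) with it, where EEF1B2 had 0.31 and 0.65 and its other snoRNA, SNORD51, 0.72 and -0.26. SNORD10 in EIF4A1 was the most counted of the 15, with 27145, 26661, 11919 and 23807 counts, or 150.8, 102.5, 42.3 and 187.5 per EIF4A1 count. For the drug in sensitive cells SNORD10 was 1.98 (1.95 to 2.01) higher, beside -0.17 for its host. In EIF4A2, SNORD2 was higher with drug in both lines, 1.58 (1.51 to 1.66) and 0.98 (0.92 to 1.05), and SNORA81, SNORA63 and SNORA4 ranged from 0.25 to 0.75 in sensitive cells and from -0.64 to 0.53 in resistant ones. MIR1248 overlaps SNORA81 and is uncertain. SNORA63B, put in EIF4A2 by its name alone, had 189, 222, 391 and 241 counts. The microRNA entries MIR6747 in EEF1G and MIR7705 in PABPC1 stood at 0 in all 4 libraries.

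The 15 snoRNAs are set beside their whole class, since snoRNA counts as such differed between the libraries. For the drug in sensitive cells 14 of the 15 had an interval above 0 and 0 below, beside 87.3% and 0.952% of the 315 snoRNA genes tested, with medians of 0.69 and 0.87. These counts are for TMM scaling only. Scaling by gene-table totals moved the median of all genes tested by -0.58 here. SNORA31, SNORA67 and SNORA4 then had ratios of -0.06, -0.20 and -0.33, while SNORD37, SNORD51 and SNORA81 stayed at 1.02, 0.11 and 0.17. In resistant cells 5 were above and 7 below, beside 62.5% and 9.84%, with medians of 0.00 and 0.53. Between lines 8 were above and 7 below without drug, beside 43.2% and 34.9%, and 4 and 11 with drug, beside 40% and 41.9%. Since snoRNAs differ from mRNAs in length and in how the kit captures them, counts per host count were not read as levels between genes.

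**Figure D4:**
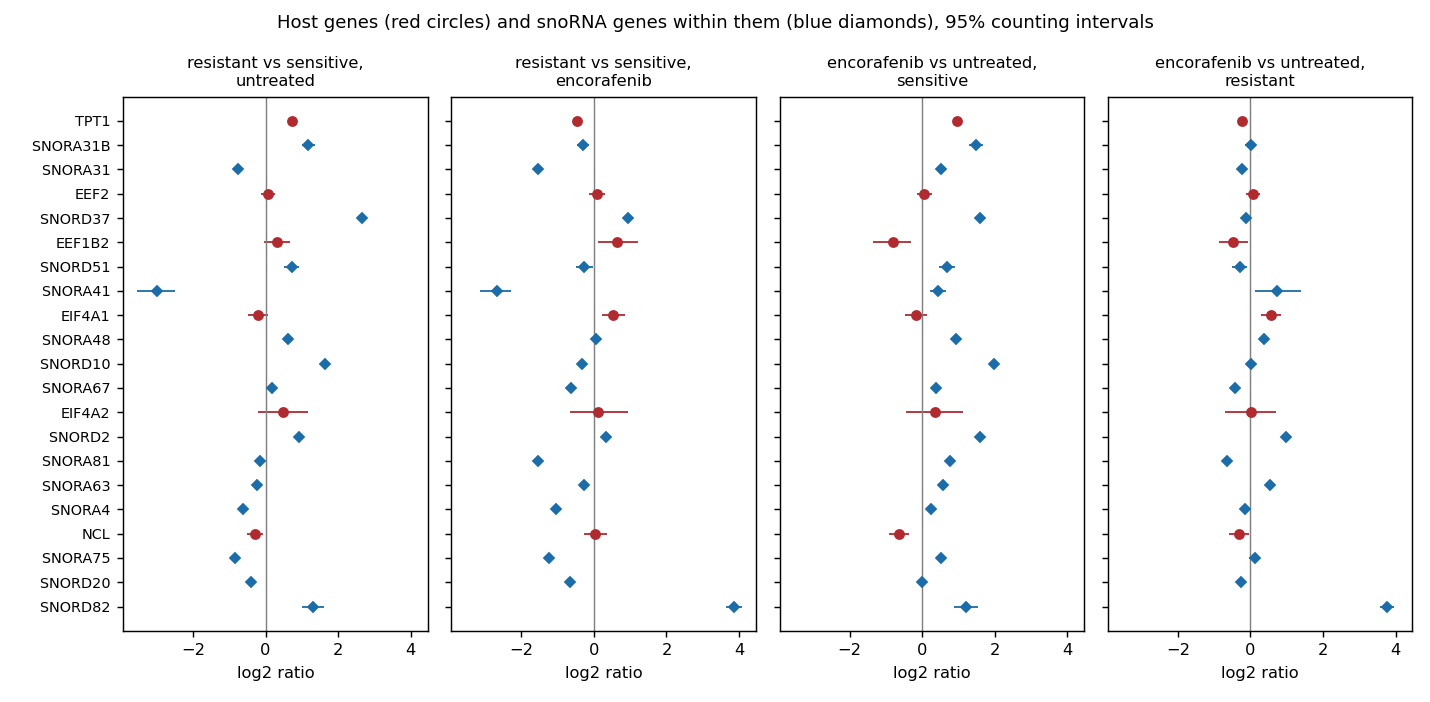
Log2 ratios, with bars for the 95% counting interval, of the 6 host genes (red circles) and the 15 snoRNA genes within them (blue diamonds) in the 4 pairs of libraries, each snoRNA listed under its host. SNORD37 at 2.66 and SNORA41 at -2.98 between untreated lines, and SNORD82 at 3.76 for the drug in resistant cells, stand far from EEF2, EEF1B2 and NCL.

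By the distance between centred log2 scaled counts over the 4 libraries, the 5 genes most like the summed 10 among 184 coding genes that had at least 100 counts in each library included MTDH (0.0771), GOLGB1 (0.103), PRRC2C (0.13) and EIF4B (0.198), against a median distance of 0.566. This describes 4 libraries and a sum of which TPT1 is 27.7% to 47.8%.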

How the data were processed

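The authors deposited unnormalized read counts per gene, per the file headers. Per the labels' protocols, total RNA from RNeasy Mini columns went into SMARTer smRNA-Seq libraries read on a NextSeq 500. The submitters' processing notes name hg19, while aligner, counter, strand use and handling of multiple matches were not given in the sources used here. Another 4 columns, of microRNA, were not used. TMM factors (edgeR 4.0.16, R 4.3.3) came from 8865 entries with at least 10 counts in at least 1 library. Log2 ratios used a prior count of 0.5 with exact conditional Clopper-Pearson 95% intervals (scipy 1.17.1), and differences of responses a delta-method interval. The additive fit used edgeR's quasi-likelihood test on genes reaching 10 counts in 2 or more libraries, and DESeq2 1.42.0 and limma 3.58.1 were alternatives. Both computations were tested on simulated data. Transcript lengths, introns and overlaps came from GENCODE (GRCh38) and start sites from RefSeq (GRCh38.p14), matched by symbol and accession for all 10 genes, with starts for 9, and no coordinate was carried over from hg19. The genes and lists were chosen with earlier results of these data known. Named genes are all 10, up to 3 genes per list and pair of libraries that reach 50 counts in the higher library and have the bound furthest from 0, hosted small RNAs, and the 5 nearest by centred counts, of which 1 is not reported here. The entries EEF1D, EEF1A2, PABPC3, SENP3-EIF4A1, TPT1-AS1 and LARP1 are named beside a gene they bear on.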

Additional observations from a re-analysis of the deposited data

Results flagged for a closer look

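The drug ratios of 3 of the 10 genes were on opposite sides of 0 in the 2 lines, each with an interval excluding 0, and the difference was not tested because each group has 1 library. Resistant minus sensitive, on the log2 scale, it was -1.20 for TPT1, 0.78 for EEF1G and 0.57 for PABPC1. Under gene-table totals all 3 stayed on opposite sides, with differences of -0.49, 1.49 and 1.28. How many of all genes tested, or of the abundant genes, meet this rule was not counted, so 3 of 10 cannot be set against them. By the response difference alone, 24.9% of abundant protein-coding genes had an interval above 0 and 16.8% below. Among all genes tested, 7.35% and 8.18% did.

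Of the 15 hosted snoRNAs, 6 also had opposite drug ratios with intervals excluding 0, higher in sensitive and lower in resistant cells, again untested. Their differences were -0.76 for SNORA31, -1.72 for SNORD37, -0.98 for SNORD51, -0.81 for SNORA67, -1.39 for SNORA81 and -0.40 for SNORA4. Under gene-table totals 5 of the 6 no longer had opposite drug ratios with both intervals excluding 0, and SNORA81 alone did, while all 6 did under the other scalings tried. In sensitive cells SNORA31, SNORA67 and SNORA4 then turned to -0.06, -0.20 and -0.33, SNORD37 in resistant cells to 0.0062, and the difference for SNORA4 turned to 0.31. How many of the 315 snoRNA genes tested meet this rule was not counted. For the drug, 87.3% of those 315 had an interval above 0 in sensitive cells and 9.84% below 0 in resistant cells. Of the 15 hosted snoRNAs, 14 and 7 did.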

How the results depend on the processing

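No paired analysis was possible because the groups share fewer than 2 replicate numbers. The additive fit takes the drug effect within lines and is itself given in the report. Scaling by gene-table totals moved the median of all genes tested by 0.10 (lines, untreated), 0.81 (lines, drug), -0.58 (drug, sensitive) and 0.13 (drug, resistant), and the 10 genes with it. Under those totals the lines without drug had 3 genes above 0 and 1 below, the lines with drug a median of 0.89 with 10 above and 0 below, the drug in sensitive cells a median of -0.88 with 8 below, the drug in resistant cells 2 below, and the response difference a median of 0.87 with 8 above. TPT1 between lines with drug turned to 0.35. TMM factors from protein-coding genes alone gave 2 genes above 0 for the drug in sensitive cells. In the additive fit, 1 gene (NPM1) was called lower for drug with DESeq2 size factors in edgeR, with limma-voom and on protein-coding genes alone. Adding SENP3-EIF4A1, chosen after the data were seen, turned EIF4A1 in resistant cells with drug to -0.18. DESeq2 size factors, protein-coding totals, no count minimum and a prior count of 5 left every count of the 10 genes within 1.5 times and every median within the typical interval. Adding processed copies could change no value, since all 91 stood at 0, so it says nothing about how reads matching copies were assigned. Counts of all genes called in the additive fit ran from 92 to 285 higher and 6 to 167 lower for line, and from 82 to 486 higher and 65 to 351 lower for drug, across the settings. Depth limits EIF4A2 and EEF1B2 most, with 24 to 143 counts per library.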
